A study of Mus musculus with 4 samples.

Results

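Krt8-high alveolar cells of Cdc42-null mice that had not lost lung tissue were 308 of the 2581 alveolar cells that passed the filters in their library, of 3344 cells in that library and of 10077 cells in the series. They were chosen by measured values, as cells with at least 500 detected genes, at most 20% mitochondrial UMIs, no UMI of Ptprc (leukocytes), Pecam1 (endothelium) or Col1a2 (fibroblasts), Sftpc at 1% or more of their UMIs and Krt8 at 0.15% or more. A UMI is a unique molecular identifier, the tag that lets each captured mRNA molecule be counted once. The cells they are set against are 1293 Krt8-low cells of the same library and filters, with Krt8 under 0.05% of UMIs, and 980 cells lie between. The rule needs Sftpc, the defining surfactant gene of alveolar type II (AT2) cells, so all of these cells carry an AT2 transcript at a high level by construction.

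All 4 groups were mice with Sftpc-CreER and Rosa26-mTmG given 4 doses of tamoxifen. The drug lets Cre act in the nuclei of cells with an active Sftpc promoter, where it turns the reporter to green fluorescent protein (GFP). Controls were Cdc42flox/+, so their recombined AT2 cells keep 1 intact Cdc42 allele, and Cdc42 AT2 null mice were Cdc42flox/-, with 1 allele already deleted in every cell and the other removed by Cre. Each genotype was sampled after sham treatment and on day 21 after PNX (pneumonectomy, an operation that takes out lung tissue), postnatal day 80 is given for each library, and GFP+ cells were sorted and sequenced with the 10x Genomics 3′ method. Each group is 1 library and the sources used here do not state how many mice it holds, so no difference below has a replicate check, a test or a p-value. Cre was driven by Sftpc, so by design deletion and labelling are aimed at cells that had switched on this gene by the time of tamoxifen. The sorted cells were not all of this kind, and the null sham library also held 120 lymphocytes.

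AT2 cells make surfactant and are the progenitors that replace the flat alveolar type I (AT1) cells of gas exchange. On the way from AT2 to AT1, cells pass through a transitional state known for simple epithelial keratins such as Krt8, Krt18, Krt7 and Krt19, for Cldn4 and Sfn, and for a fall in surfactant and lipid genes. Cdc42 is a GTPase with roles in actin filaments and in the polarity of epithelial cells.

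Levels below are CPM, the UMIs of a gene summed over a group of cells for each 1000000 UMIs of that group. Ratios are of CPM with an exact 95% binomial interval, and shares of cells have exact binomial intervals, all of which cover counting error only. The members held 2006608 UMIs in all and the Krt8-low cells 6702076. Median depth was 6100.5 UMIs and 1902 genes in a member and 4855 UMIs and 1626 genes in a Krt8-low cell, and the median mitochondrial share was 4.52% and 5.17%. The 4 libraries held 2111 to 3344 cells and 9868802 to 24897537 UMIs, with median depths of 4503 to 4844.5 UMIs per cell in 3 of them and 9705.5 in null PNX. A total of 54 cell barcodes occur in more than 1 library, and 1 member is among them.

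The same rule found 3 of 1678 cells in control sham (0.179%, 0.0369 to 0.522), 20 of 1936 in control PNX (1.03%, 0.632 to 1.59), 308 of 2581 in null sham (11.9%, 10.7 to 13.3) and 664 of 1479 in null PNX (44.9%, 42.3 to 47.5). These intervals treat cells as independent and cover counting error within a library, so they do not test a difference between conditions. Null sham lay above both control libraries and below null PNX. After each cell was thinned to 2000 UMIs, the shares were 0.822%, 1.501%, 18.7% and 54.4%, in the same order, with 108, 71, 90 and 0 shallower cells left out. The Sftpc minimum kept out 11 cells with high Krt8 in null sham, against 326 in null PNX.

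**Figure D1:**
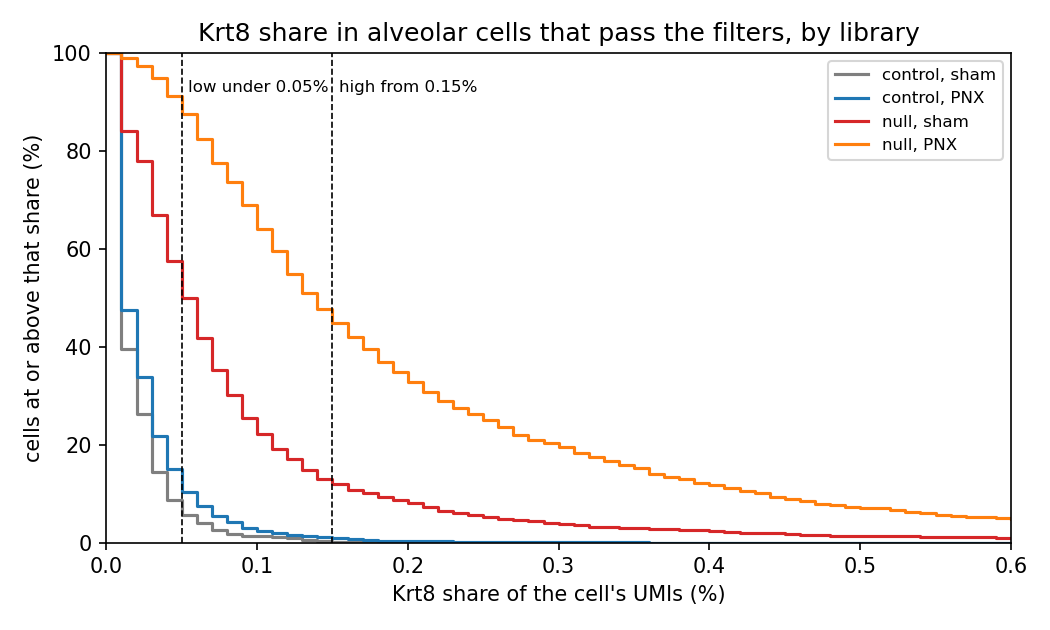
Share of alveolar cells (vertical axis, percent) whose Krt8 UMIs make up at least the share on the horizontal axis (percent of the cell's UMIs), with 1 line per library and dashed lines at the limits for Krt8-low and Krt8-high. The null sham line falls smoothly through 0.15%, where it reads 11.9%, between null PNX at 44.9% and both control libraries near 0 to 1.03%.

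Krt8 share had no gap at the limit. The lowest 5 members had 0.1504% to 0.1511% and the highest 5 cells outside had 0.1483% to 0.1495%, and 29 cells lay at 0.14 to 0.15% against 32 at 0.15 to 0.16%. Members had a median Krt8 share of 0.233% with quartiles of 0.186% and 0.336%, a highest value of 1.88%, and at least 3 Krt8 UMIs each. The class is thus a range of Krt8 cut at a limit, and 99 of the 308 members were at 0.30% or more. When the UMIs of each cell were divided at random into equal parts and cells were chosen on 1 part, Krt8 was 3411 CPM in the 349 chosen cells and 173 in 1371 Krt8-low cells in that part, and 3048 and 435 in the part that did not choose them. The gap was narrower in the part that did not choose the cells. Both parts come from the same cells, so this is no independent support for the class.

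The label's 3 marker genes did not behave alike. Krt8, which chose the cells, was 3499 CPM in members and 227 in Krt8-low cells. Fxyd2, a regulatory subunit of the sodium pump, was 466 CPM in members, 103 in Krt8-low cells and 13.5 and 15.9 in the Krt8-low cells of control sham and control PNX. Gsta1, an alpha-class glutathione S-transferase, was 25.9 CPM in members and 5.97 in Krt8-low cells, but its 52 UMIs came from 11 of the 308 members (3.57%, 1.80 to 6.30), with 38.5% of them in 1 cell. Gsta1 thus went against its place as a marker of these cells, and 26 of the 980 intermediate and 14 of the 1293 Krt8-low cells also had it. Gsta1 has a near-identical neighbour, Gsta2, and reads of such copies can be split or lost in counting.

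Of the 17117 genes in the table, 6926 averaged at least 10 CPM over members and Krt8-low cells, and these are called measured. A gene is called higher or lower when its ratio differs by at least 1.5-fold from the median ratio of measured genes, which was 0.02 on the log2 scale. By this rule 633 genes (9.14%) were higher in members and 523 (7.55%) were lower. Since Krt8 chose the cells in this contrast, and any gene that varies with Krt8 was chosen with it, these counts are a description of the class.

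**Figure D2:**
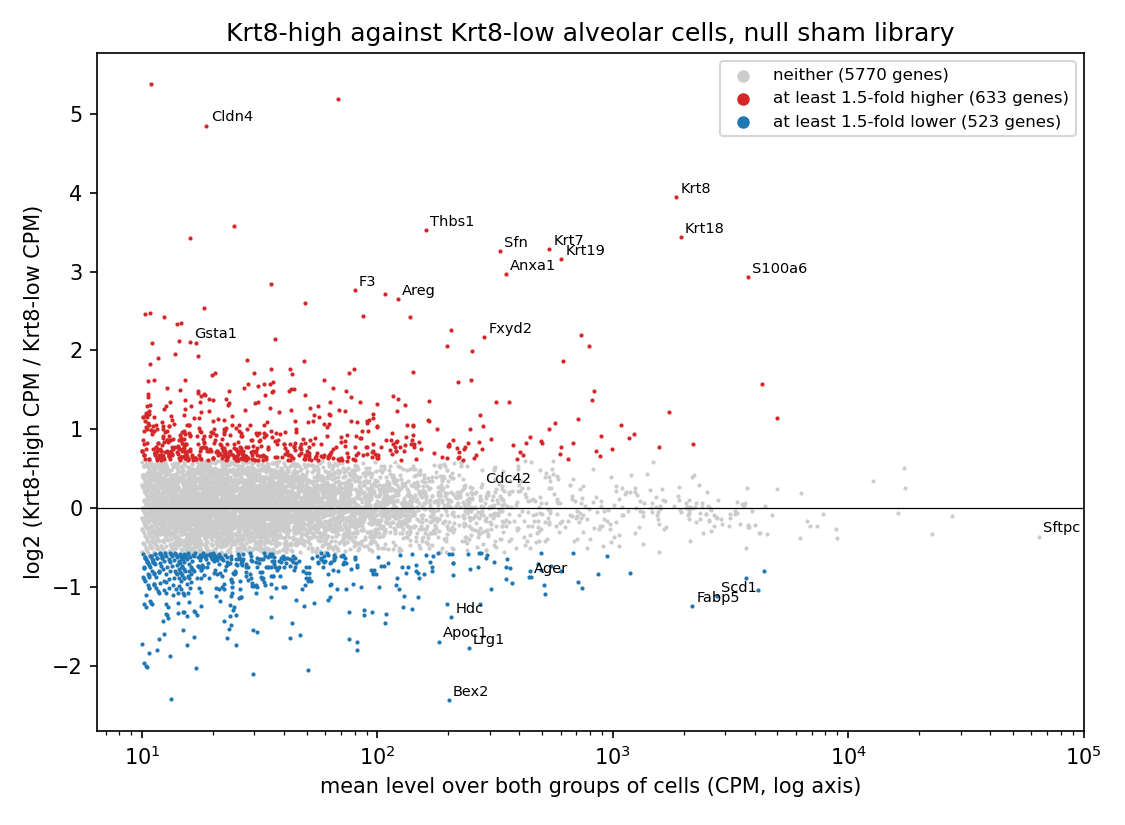
Each point is 1 of the 6926 measured genes, with its mean level over members and Krt8-low cells on a log axis (CPM) and its log2 ratio of members to Krt8-low cells on the vertical axis. Cldn4, Krt8, Thbs1 and Krt18 lie highest among the labelled genes, Bex2 is the lowest labelled gene, and Sftpc and Cdc42 lie within 0.5 of 0.

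Simple epithelial keratins, the intermediate filament proteins that pair as Krt8 with Krt18 and Krt7 with Krt19 or Krt18, stood among the highest genes. Krt18 was 3554 CPM in members and 328 in Krt8-low cells, a ratio of 10.8 (10.3 to 11.4), and it was 155 and 162 in the Krt8-low cells of control sham and control PNX. Krt7 was 973 against 99.4 CPM, a ratio of 9.79 (8.97 to 10.7), and Krt19 was 1084 against 122, a ratio of 8.91 (8.22 to 9.67). These ratios were smaller after thinning every cell to 2000 UMIs, at 6.37 for Krt18, 5.83 for Krt7 and 5.10 for Krt19, and Krt18 and Krt7 were at 17.5 and 15.8 with members from 0.25% Krt8. Krt23, the other measured keratin, was 114 against 99.4 CPM and did not reach 1.5-fold. Krt8 and Krt18 are neighbours on chromosome 15 in the mm10 build, Krt8 at chr15:101996698-102004482 on the minus strand and Krt18 at chr15:102028180-102032027 on the plus strand. In the cells taken singly, Krt18 had a median of 1701 CPM in members, with 10th and 90th percentiles of 374 and 7038, and a median of 254 CPM in Krt8-low cells, with percentiles of 0 and 718. The tails of both groups overlapped. In all, 292 of 308 members had a Krt18 UMI (94.8%), 275 had Krt19 (89.3%) and 237 had Krt7 (76.9%). In the shallower Krt8-low cells these shares were 70.5%, 40.3% and 35.0%. Thinned to 2000 UMIs per cell, they were 91.8%, 73.3% and 60.6% in members and 42.0%, 22.0% and 16.1% in Krt8-low cells. A total of 162 members (52.6%) had UMIs of all 4 of Krt18, Krt7, Krt19 and Sfn, against 74 of 1293 Krt8-low cells (5.72%), and 6 members had none of them.

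Among the other genes with the highest ratios, 5 encode secreted or surface proteins and 3 intracellular ones. Thbs1, the matrix protein thrombospondin-1 that can activate latent TGF-β, was 296 CPM in members and 25.5 in Krt8-low cells, a ratio of 11.6 (9.77 to 13.8). F3, tissue factor, the starter of clotting, was 140 against 20.6 CPM (ratio 6.78, 5.51 to 8.37). Areg, an EGF receptor ligand, was 211 against 33.6 CPM (ratio 6.29, 5.34 to 7.43). Ndnf, a secreted factor, was 187 against 28.5 CPM, and Tnfrsf12a, the receptor of TWEAK, was 147 against 27.0. Among intracellular proteins, Sfn (14-3-3σ) was 600 against 62.4 CPM, Anxa1 (annexin A1) 621 against 79.4 and S100a6 (a calcium-binding protein) 6648 against 873. In 120 lymphocytes of the same library, with a median of 2988 UMIs per cell, Krt18 was 128 CPM, Thbs1 16.8 and Sfn 18.9. These lymphocytes also held AT2 transcripts, with Sftpc at a median of 4338 CPM and a 90th percentile of 54385, so their levels are no clean measure of free RNA. After every cell was thinned to 2000 UMIs and chosen again, the ratios of several genes were over 1.5 times smaller, with Sfn at 5.24, Anxa1 at 3.99, S100a6 at 4.73 and F3 at 3.76, and all 4 stayed higher in members. Thbs1 was at 6.65, Sfn at 5.71, Anxa1 at 5.06, S100a6 at 4.38, Ndnf at 4.11 and Areg at 3.73 against all cells under 0.15% Krt8, a group that includes the intermediate cells.

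The promoters of 3 of the 12 genes with the highest ratios are shown, because their windows are the ones in the RefSeq table (build GRCm38.p6) that lie wholly outside the annotated gene body, and because F3 holds 2 matches to the AP-1 motif. RefSeq windows were found for 9 of the 12 genes and not for Thbs1, Krt19 and Ndnf. Each is the 250 bases before the start, 5′ to 3′ on the strand of the gene, and capitals mark TGANTCA, the site bound by AP-1, the Fos and Jun dimer.
F3, chr3:121723287-121723536, plus strand: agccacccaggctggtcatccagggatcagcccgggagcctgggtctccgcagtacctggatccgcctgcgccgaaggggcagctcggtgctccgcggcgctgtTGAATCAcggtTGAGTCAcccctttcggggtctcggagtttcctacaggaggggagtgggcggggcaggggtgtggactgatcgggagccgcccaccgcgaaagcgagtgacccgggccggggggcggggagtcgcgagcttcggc
Sfn, chr4:133602169-133602418, minus strand: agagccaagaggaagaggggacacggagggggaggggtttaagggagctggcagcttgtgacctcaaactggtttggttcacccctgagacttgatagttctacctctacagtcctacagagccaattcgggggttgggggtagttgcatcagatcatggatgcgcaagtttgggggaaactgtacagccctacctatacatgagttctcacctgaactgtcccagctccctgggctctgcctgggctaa
Areg, chr5:91139349-91139598, plus strand: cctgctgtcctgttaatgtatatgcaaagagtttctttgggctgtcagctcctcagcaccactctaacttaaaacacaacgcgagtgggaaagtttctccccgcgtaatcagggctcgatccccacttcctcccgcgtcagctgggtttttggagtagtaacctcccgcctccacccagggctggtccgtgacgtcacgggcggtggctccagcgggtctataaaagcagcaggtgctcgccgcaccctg
F3 had 2 matches 4 bases apart, and Sfn and Areg had none. TGANTCA, searched on both strands, was in 6.75% of all 32851 windows of this length, in 3.83% of the 5359 measured genes with a window, in 39 of 489 genes higher in members (7.98%) and in 13 of 404 lower genes (3.22%). GGAATG, the site of TEAD factors, was in 12.6% of all windows, in 9.96% of measured genes, 12.3% of higher genes and 11.6% of lower genes. TGACNNNGC, the core of the antioxidant response element bound by NRF2, was in 10.2% of all windows and in 12.4%, 13.9% and 9.41% of the same gene groups. A match is a description of letters, and no test of these shares was made. Among AP-1 subunits, Fos was 162 CPM in members and 156 in Krt8-low cells, Jun 207 against 174 and Jund 1112 against 851, all within 1.5-fold. Fosl1 (Fra-1) lay under the level for measured genes, with 11 UMIs in members and 1 in Krt8-low cells.

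Cells with more Krt8 had more of the same genes along the whole range of Krt8. Over 5 ranges, under 0.05%, 0.05 to 0.10%, 0.10 to 0.15%, 0.15 to 0.30% and 0.30% or more, Krt18 was 328, 546, 973, 1628 and 6623 CPM. Thbs1 was 25.5, 47.9, 116, 178 and 485 CPM, and S100a6 was 873, 1929.7, 3151, 5036 and 9216. The ranges were cut on Krt8, and these genes were picked by their ratio in the same cells. Their direction over the ranges is thus a description. Within the members, the 99 at 0.30% or more had 4.07 times the Krt18 of the other 209 (3.86 to 4.29). They had 4.15 times the Krt7 (3.75 to 4.59) and 2.73 times the Thbs1 (2.303 to 3.238). In this comparison 10.6% of 6859 measured genes were at least 1.5-fold higher and 11.3% lower, 21.9% in all. The last range also had the deepest cells, a median of 8073 UMIs against 5690.0 in the range below it, and the part of depth in this was not tested. Bex2 ran the other way, at 339, 243, 170, 77.9 and 38.8 CPM, and so did Lrg1, at 377, 328, 219, 137 and 68.5.

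**Figure D3:**
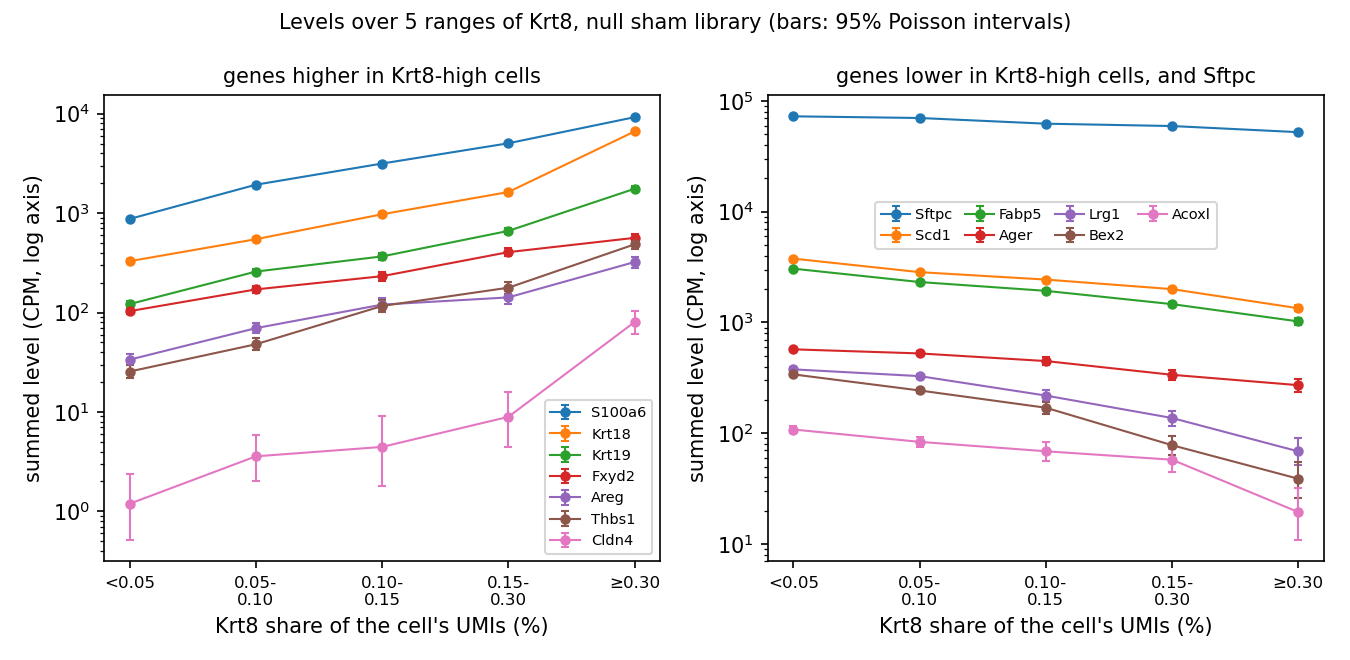
Summed level (CPM, log axis) of 7 genes higher in members, left, and of 6 genes lower in members plus Sftpc, right, over 5 ranges of Krt8 share (percent of UMIs) in null sham cells, with 95% Poisson intervals. Members are the 2 ranges on the right of each panel. Krt18 goes from 328 to 6623 CPM and Bex2 from 339 to 38.8, while Sftpc goes from 72640 to 52255.

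Fxyd2 followed Krt8 over the 5 ranges at 103, 171, 232, 405 and 564 CPM. A total of 169 members had a Fxyd2 UMI (54.9%, 49.1 to 60.5), against 302 Krt8-low cells (23.4%, 21.1 to 25.8) and 12 of 120 lymphocytes (10.0%, 5.27 to 16.8). Thinned to 2000 UMIs per cell, the shares were 38.4%, 13.3% and 4.85%. Fxyd2 lies at chr9:45399669-45410278 on the plus strand. The level of Fxyd2 in null sham Krt8-low cells was 7.64 times that of control sham Krt8-low cells (6.22 to 9.46). In control PNX, 201 cells with Krt8 at 0.05% or more had 3.02 times the Fxyd2 of Krt8-low cells (2.14 to 4.19). When members were split at their median Fxyd2 share, a split chosen after the values were seen, the 154 above it had 7401 CPM of S100a6 and the 154 below it 5702, a ratio of 1.30 (1.25 to 1.34). Krt18 was 1.42 times higher in the upper cells (1.35 to 1.49), F3 was 131 against 150.5 CPM and Apoc1 was 57.3 against 122. The upper cells were also deeper, with a median of 6618 UMIs against 5497, and their median Krt8 share was 0.240% against 0.219%. The part of depth and Krt8 in these levels was not tested. Of the genes measured in this split, 7.31% were at least 1.5-fold higher and 8.08% lower. Among 13 measured genes of the FXYD family and of ion transport, 3 were higher in members and 2 lower, with a median log2 ratio of 0.02. Between members and Krt8-low cells, 9.14% of all measured genes were higher and 7.55% lower. The higher list genes were Fxyd2, Fxyd4 (23.4 against 5.37 CPM) and Fxyd6 (at 40.4 CPM in members). Fxyd5 (12.5 against 19.4) and the phosphate carrier Slc34a2 (2585 against 4793) were lower. Atp1b1, the beta subunit of the sodium pump, was within 1.5-fold, at 695 against 911 CPM.

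The 11 members with a Gsta1 UMI stood apart in antioxidant genes. Of 35 other measured genes of glutathione metabolism and of the NRF2 programme, the transcriptional response to oxidants and electrophiles, 25 had a counting interval above 1 in these cells against the other 297 members, 2 had one below 1, and the median log2 ratio was 1.19. Among all measured genes, 5.13% had an interval above 1 and 2.64% one below 1. Many of those genes have low levels, where few UMIs make such an interval harder to reach. The intervals also leave out the spread between cells, and 1 cell held 80 of the 294 Gstp1 UMIs. Srxn1, sulfiredoxin, was 394 CPM in the 11 members and 56.6 in the others (6.96-fold, 4.81 to 9.92). Gsta4 was 651 against 116 CPM, Gstp1 2518 against 625 and Gclm, the modifier subunit of the glutathione-making enzyme, 231 against 50.3. The 11 cells were deeper, with a median of 9448 UMIs against 5989. Without the member with most Gsta1 UMIs, 24 of 35 genes had an interval above 1. The same split gave 24 of 35 in the intermediate cells (26 cells with Gsta1), 27 of 35 in the Krt8-low cells (14 cells) and 24 of 35 in null PNX Krt8-high cells (29 cells), where 7.38%, 4.56% and 5.72% of all measured genes had one. Cells with Gsta1 were therefore high in these genes in each Krt8 class, and the split was chosen after the values were seen. Over all members, 12 of the 36 measured genes of the list were higher than in Krt8-low cells and Gpx1 was lower, against 9.14% and 7.55% of all genes. Srxn1 was 76.2 against 20.9 CPM, and the reductase Akr1b8 was 123 against 36.3.

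Of the 18 measured transitional genes other than Krt8, 16 were higher in members and none was lower, with a median log2 ratio of 2.23. Among all measured genes, 9.14% were higher and 7.55% lower. This list overlaps the keratins above, and it was chosen with the transitional state in mind. Besides genes already given, Lgals3 (galectin-3) was 1282 CPM in members and 309.5 in Krt8-low cells, Ndrg1 30.4 against 9.40, and Hbegf (an EGF receptor ligand) 32.9 against 12.5. Nupr1 and Cstb were the 2 members of the list within 1.5-fold of the median. Cldn4, a tight junction claudin used to mark transitional cells, was 36.4 CPM in members and 1.19 in Krt8-low cells, a ratio of 30.5 (14.7 to 73.2) that rests on 73 UMIs in 32 members and 8 UMIs in 8 Krt8-low cells. The ratio was 9.95 after thinning to 2000 UMIs and 54.8 with members from 0.25% Krt8, so its size is uncertain beyond the counting interval. The 32 members with Cldn4 had 7881 CPM of Krt18 and 2051 of Hspb1, and the other 276 had 2787 and 772. Those 32 were also deeper, with a median of 9354 UMIs against 5919.5. Their median Krt8 share was 0.535% against 0.222%, and the part of depth and Krt8 in these levels was not tested.

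Among 25 measured AT2 genes other than Sftpc, 13 were lower in members and none was higher, with a median log2 ratio of -0.61. Sftpc itself, which the rule used, was 56623 CPM in members and 72640 in Krt8-low cells. The other surfactant proteins were within 1.5-fold, with Sftpa1 at 26571 against 28414 CPM, Sftpb at 15906 against 16564 and Sftpd at 2997 against 3279.7. Among the 13 lower genes, Abca3, the lipid pump of lamellar bodies, was 318 against 582 CPM, Lpcat1, an enzyme of surfactant lipid remodelling, 619 against 1111 and Slc34a2 2585 against 4793. The lineage factors Nkx2-1 (272 against 302 CPM) and Cebpa (427 against 442) were within 1.5-fold, while Etv5, a target of FGF signalling, was 271 against 460. Of 16 measured genes of fatty acid synthesis, 10 were lower, 6 were within 1.5-fold and none was higher, with a median of -0.66, where 7.55% of all measured genes were lower. Scd1, the stearoyl-CoA desaturase, was 1746 against 3768 CPM, Fabp5, a fatty acid carrier, 1293 against 3059 and Fasn, the fatty acid synthase, 364 against 594. Of 18 measured genes of cholesterol synthesis, 5 were lower, among them Idi1 at 61.8 against 102 CPM and Mvd at 16.9 against 35.1, and none was higher.

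The lowest ratios were those of Bex2, at 62.8 CPM in members and 339 in Krt8-low cells, or 5.41-fold lower (4.52 to 6.52). Its ratio of 0.185 was 0.392 after thinning to 2000 UMIs and 0.110 with members from 0.25% Krt8, and after thinning Lrg1 went from 0.294 to 0.539, Chil1 from 0.366 to 0.574, Hdc from 0.384 to 0.634 and Acoxl from 0.397 to 0.643. Bex2 encodes a small adaptor-like protein of the brain-expressed X-linked family. Itih4, an acute-phase inhibitor chain, was 3.51-fold lower (2.76 to 4.52), Lrg1, an acute-phase glycoprotein, 3.41-fold lower (2.97 to 3.92), Trf, transferrin, 3.26-fold lower (2.58 to 4.17) and Apoc1, an apolipoprotein, 3.24-fold lower (2.77 to 3.81). Hdc, which makes histamine, was 114 against 297.5 CPM and Chil1 57.8 against 158. Sord, Atp6v1c2, Cst8, Acoxl and Scgb1c1 completed the 12 lowest, with ratios of 0.315 to 0.401. Of 15 measured chemokine and acute-phase genes, 7 were lower and 2 higher, against 7.55% lower and 9.14% higher among all measured genes. The 7 included Lcn2 (328 against 700 CPM), Hp (164 against 381.5) and Il33 (81.7 against 199). The 2 higher genes were Nfkbia at 187 against 75.4 and Cxcl16 at 124 against 77.4.

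AT1 genes were mixed. Of 18 measured, 7 were higher and 2 lower in members, with a median log2 ratio of 0.37, where 9.14% of all measured genes were higher and 7.55% lower. Ager, the receptor used most often to mark AT1 cells, was lower in members, at 312 CPM against 572, and both were below the 1312 CPM of control sham Krt8-low cells. Hopx was 16.5 against 16.6 CPM. The 7 higher genes were Timp3 (218 against 65.8), S100a14 (233 against 43.1), Cav2 (74.2 against 32.8), Ahnak, Tspan8, Gprc5a and Emp2. Cyp2b10 was the other lower gene, at 28.9 against 68.9 CPM.

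Of 36 measured actin and Cdc42 partner genes, 17 were higher and none lower, with a median of 0.56, where 9.14% of all measured genes were higher. Actg1 was 6416 CPM in members and 2146 in Krt8-low cells, Tpm4 519 against 205 and Rhoc 77.7 against 35.1. Cdc42 itself was 302 against 250 CPM (ratio 1.21, 1.10 to 1.33), with 186 in control sham Krt8-low cells. Reads from a 3′ method lie near the end of the transcript, and the sources used here do not state which part of Cdc42 is floxed, so this level is no check of the deletion. Of 16 annexins and S100 genes, 11 were higher, of 18 junction genes 9, and of 19 matrix and integrin genes 9, and none of these was lower. Epcam was 322 against 202.5 CPM and the laminin chain Lama3 22.9 against 7.46.

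The counts of stress and signalling lists stand beside 9.14% higher and 7.55% lower among all measured genes. Of 17 measured p53 and senescence genes, 7 were higher, including Cdkn1a (p21) at 96.2 against 40.6 CPM, Gdf15 at 54.3 against 17.9 and Trp53 at 33.4 against 14.9, and Sesn2 was lower. Of 15 TGF-β genes, 6 were higher, with Tgfb3 at 17.4 against 3.13 CPM, Itgav, an integrin chain that releases TGF-β, at 53.8 against 27.4 and Pmepa1, a target, at 60.3 against 34.5. Of 24 genes of the unfolded protein and integrated stress responses, 2 were higher, a share near that of all genes, Asns (31.4 against 5.37 CPM) and Atf4 (152 against 78.6), and the chaperone Hspa5 was 204 against 219. Of 12 heat-shock genes, 4 were higher, led by Hspb1 at 965 against 266 CPM. Of 16 glycolysis and hypoxia genes, 6 were higher, led by Ndrg1 and Eno1 (96.2 against 33.4). Of 11 YAP and TAZ targets, F3 and Ptpn14 were higher and Rbms3, Wwc1 and Amotl2 lower. Of 9 cell cycle genes, Tuba1b, Tubb5 and Pcna were higher, and Top2a and Cdk1 had 0 UMIs in members. None of 11 interferon genes, 7 MHC class II genes or 24 ribosomal protein genes passed 1.5-fold in either direction, and the median of the ribosomal genes was 0.00.

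**Figure D4:**
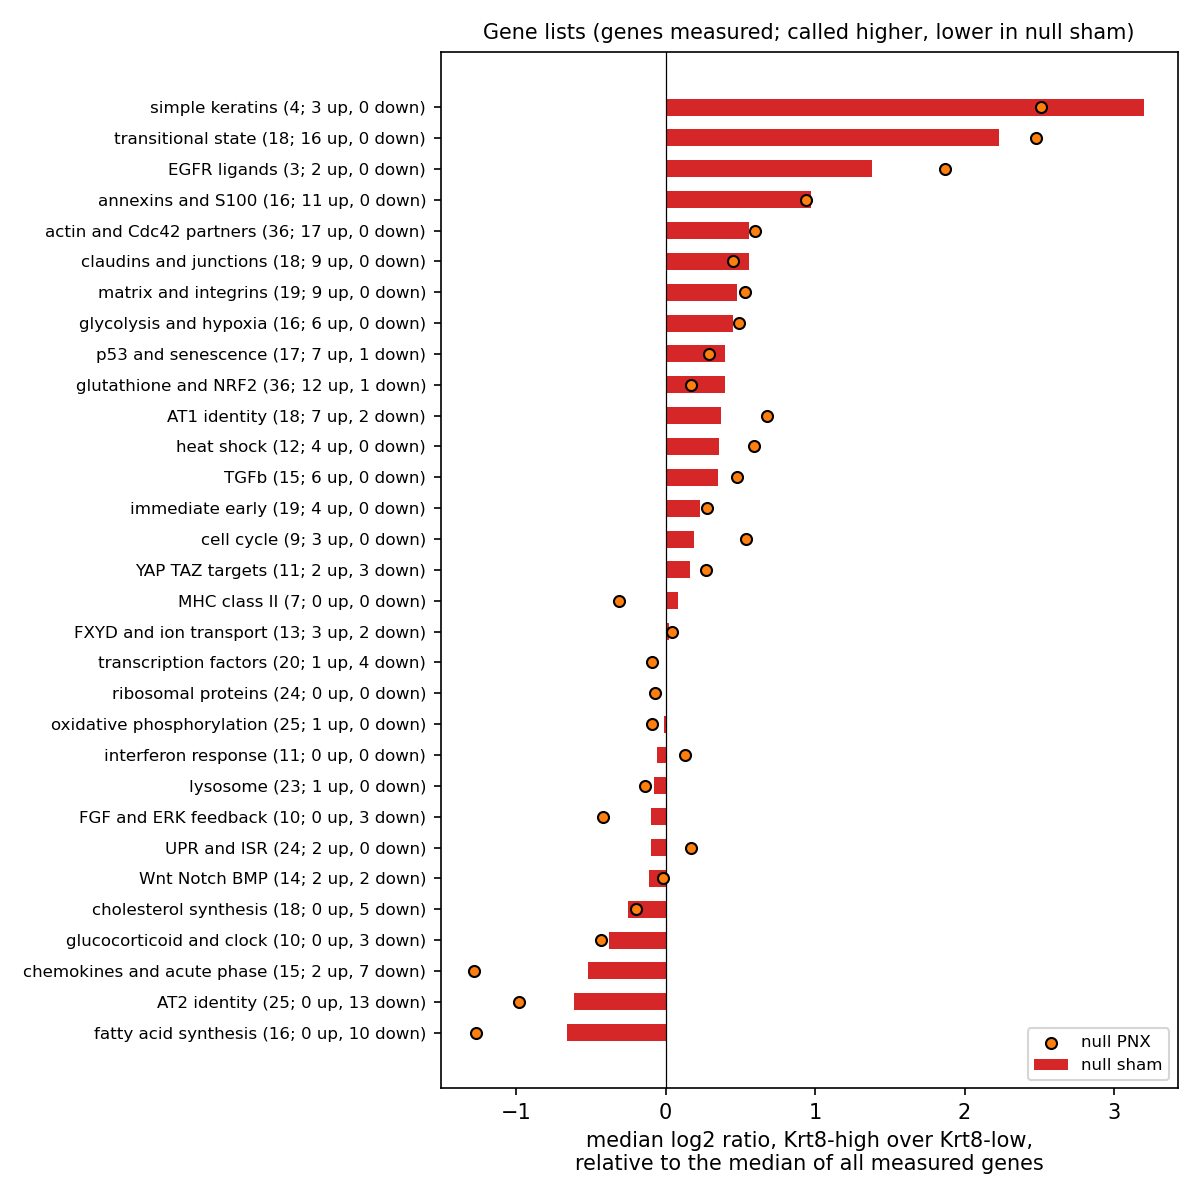
Median log2 ratio of Krt8-high to Krt8-low cells for 31 gene lists, relative to the median of all measured genes, as bars for null sham and points for null PNX. Text beside each list gives the genes measured and the number called higher and lower in null sham. Keratins and transitional genes have the highest bars (3.20 and 2.23) and fatty acid synthesis the lowest (-0.66).

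Markers of other cell types were set beside these values. Of 18 lists of other cell types, 16 had a summed level of at most 345 CPM in members. By the rule, members and Krt8-low cells had no UMI of Ptprc, Pecam1 or Col1a2. Low levels of leukocyte, endothelial and fibroblast markers are thus partly set by the choice of cells, and are no independent check of purity. Club cell markers summed to 2734 CPM in members and 5617 in Krt8-low cells, nearly all of it Scgb1a1, and Muc5b, Bpifa1 and Scgb3a1 were at 0 in members. Ciliated markers summed to 345 against 143 CPM, of which Tppp3 made up 330 and 109, and Foxj1 was 0.997 against 2.84. The macrophage list summed to 14346 against 11369.9 CPM, almost wholly from Lyz1, a lysozyme that AT2 cells also make, and Marco and Mrc1 were at 0 in members. T-cell markers summed to 6.48 against 19.8 CPM and basal cell markers (Krt14, Krt15 and Ngfr) to 0. Smooth muscle markers were 3.49 against 1.04 CPM, with Tagln at 0.

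Null PNX Krt8-high cells were 664 cells chosen by the same rule in the other null library, and both contrasts below were selected on Krt8. Of 6484 genes measured in both libraries, 592 were higher and 447 lower in null sham members, and 302 of the 592 (51.0%) were also higher in null PNX Krt8-high cells against Krt8-low cells of null PNX, where 10.2% of these genes were (11.7% of all 7157 genes measured in null PNX). In turn, these 302 were 45.6% of the 663 genes higher there. Of the 447 lower genes, 260 (58.2%) were also lower in null PNX, where 12.2% were (12.3% of all 7157), and they made up 32.9% of its 791. Opposite calls were made for 7 genes, Col6a2, Dip2b, Efna3 and Rasl10a (higher in null sham) and Prkra, Ssbp3 and Tmem168 (lower in null sham), at no more than 30.3 CPM in any group.

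Set directly against each other, both Krt8-high groups had like levels of Krt8 (3499 CPM in null sham and 3511 in null PNX) and Krt18 (3554 and 3299.7). Of 7222 measured genes, 19.7% were at least 1.5-fold higher in null sham members and 15.3% lower, relative to a median log2 ratio of -0.26. Cldn4 was 36.4 CPM in null sham and 333 in null PNX, Clu, a secreted chaperone, 310 and 3153, Areg 211 and 797, and Ager 312 and 1194. Fxyd2 went the other way, at 466 and 71.4 CPM, and so did the reductase Cbr2, at 6706 and 378. Fxyd2 was also higher in null sham in Krt8-low cells (103.3 and 42.53) and in lymphocytes (42.05 and 25.91). Cbr2 differed the same way in Krt8-low cells (5863 and 948) and in lymphocytes (1457 and 141), while Clu was lower in null sham there too (174 and 912.5 in Krt8-low cells, 35.7 and 1412 in lymphocytes). A total of 405 of 664 null PNX Krt8-high cells had a Cldn4 UMI (interval 57.2% to 64.7%), against 32 of 308 members (10.4%, 7.22 to 14.3), or 26.4% and 4.79% at 2000 UMIs per cell. Transitional genes were mostly lower in null sham members, with 13 of 23 lower and 1 higher, while 15 of 25 AT2 genes and 12 of 16 fatty acid genes were higher. The clock genes were far apart too, with Dbp at 170 and 7.60 CPM, but Krt8-low cells (222 and 18.8) and lymphocytes (58.9 and 14.8) differed in the same direction. Ribosomal protein genes were higher in null sham members for 17 of 24. Differences of this kind between whole libraries and differences between the Krt8-high cells cannot be told apart, and null PNX cells were deeper, with a median of 12464 UMIs. Lymphocytes of null PNX, at a median of 3568 UMIs, held 181 CPM of Cldn4 and 981 of Krt18, against 0 and 128 in lymphocytes of null sham, and the part of this in the differences was not tested.

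**Figure D5:**
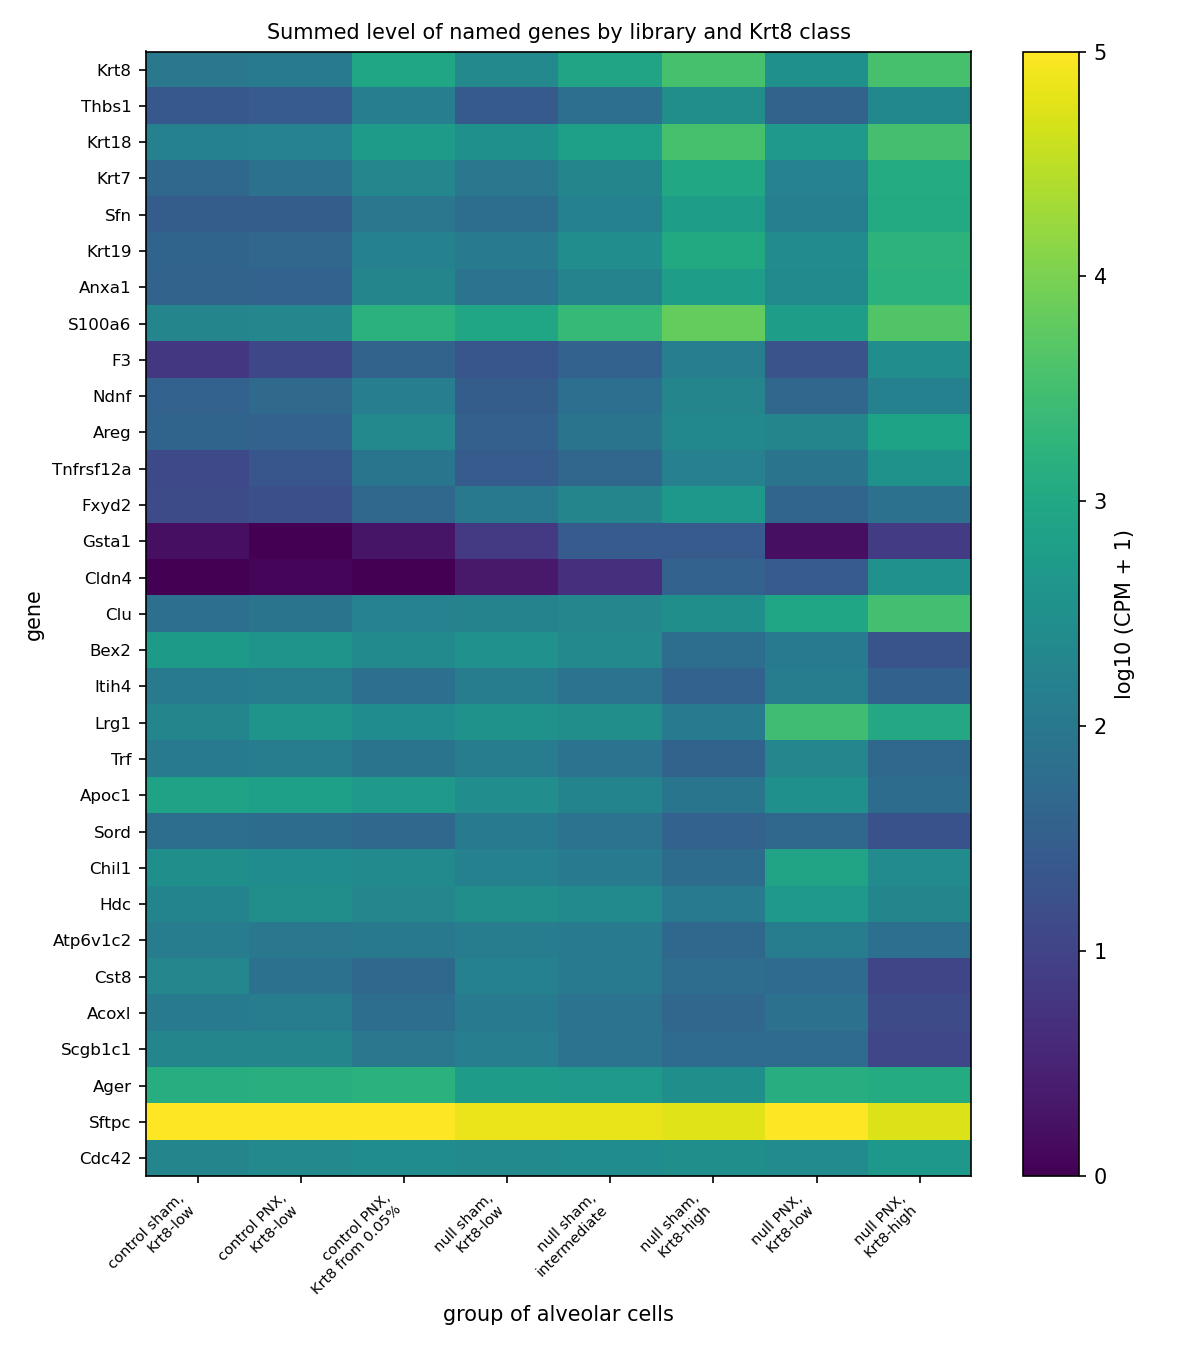
Summed level of named genes in 8 groups of alveolar cells by library and Krt8 class, as log10 of CPM plus 1 (color scale from 0 to 5, with higher Sftpc values drawn as 5). Both Krt8-high columns have high keratins and low Bex2, while Fxyd2 is highest in the null sham Krt8-high column and Cldn4 and Clu are highest in the null PNX Krt8-high column.

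Krt8-low cells of null sham were not the same as those of control sham. Against control sham Krt8-low cells, 5.85% of 6799 measured genes were at least 1.5-fold higher and 6.53% lower, relative to a median of 0.17. Of 16 measured transitional genes 10 were higher and 2 lower, and S100a6 was 873 CPM against 186. In control PNX, the 201 cells with Krt8 at 0.05% or more were also high in S100a6 (7.66-fold, 7.16 to 8.19), Areg (6.24-fold, 5.26 to 7.39) and Thbs1 (5.12-fold, 4.13 to 6.33) against Krt8-low cells of that library, where 5.79% of measured genes were higher and 4.50% lower. Cldn4 had 0 UMIs in those 201 cells, where 3 UMIs would be 2.87 CPM.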

How the data were processed

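Single-cell 3′ RNA libraries of GFP+ lung cells, 1 per group, were analysed from the UMI count table that the authors deposited, with cells of 4 libraries in 1 table of 17117 genes and the library in the barcode ending. Per the submitters' processing notes, Cell Ranger 2.1.0, Seurat 2.3.4 and mm10 were used, and no source read for this work states the counting settings. The deposited counts were used as they are, with no depth scaling found in them. UMIs were summed over cells and given as CPM. With 1 library per group no test across samples was possible, and ratios carry exact binomial 95% intervals, levels exact Poisson ones, for counting error only. Measured genes averaged at least 10 CPM over both groups compared. No doublet caller was run, and doublets were treated only by the zero counts of Ptprc, Pecam1 and Col1a2. The members, the gene lists and the tests were chosen with earlier results of these data known. Named genes were 8 fixed ones, the 12 highest and 12 lowest of those averaging at least 50 CPM with at most 10% of their UMIs in 1 cell, and up to 4 per list; other genes are examples of lists. Cells were thinned with seed 7, and by a separate random draw for the alternatives. Alternatives changed the Krt8 limits, the cell and level filters, depth, weighting and scaling (edgeR 4.0.16 TMM factors). Scripts were tested on simulated data. The tools were numpy 2.4.6, scipy 1.17.1, pandas 2.3.3, matplotlib 3.10.9 and R 4.3.3. Gene positions are those of GENCODE M21 on mm10, and promoters those of RefSeq. Krt8 overlaps the antisense transcript Gm36026.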

Additional observations from a re-analysis of the deposited data

How the results depend on the processing

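Members chosen from 0.10% Krt8 made up 22.2% of alveolar cells, from 0.25% 5.15%, after thinning every cell of the library to 2000 UMIs 19.1%, within the middle depths of the Krt8-low cells 9.46% and on a random part of the UMIs 13.5%, against 11.9%. The thinned share of 18.7% given earlier came from a separate random draw. The 633 higher and 523 lower genes became 390 and 301 with the limit at 0.10%, 973 and 908 at 0.25%, 207 and 139 among genes of at least 50 CPM, and 2409 and 2952 with no filter on level, where most added genes have few UMIs. The Fxyd2 ratio of 4.51 was 3.52 from 0.10%, 5.30 from 0.25%, 3.28 against all cells under 0.15%, 3.55 without cells with UMIs of other cell types, 2.87 after thinning, 5.30 within the middle depths and 3.90 for cells chosen on a random part. Leaving out cells with UMIs of other cell types kept 138 of the 308 members and 647 of the 1293 Krt8-low cells. The Gsta1 ratio of 4.34 was 2.81 from 0.10%, 9.97 against cells under 0.02%, 1.62 against all cells under 0.15% and 6.80 without the cell with most of its UMIs in each group, and it reversed to 0 within the middle depths, where the 110 members held no Gsta1 UMI. The transitional median of 2.23 became 2.99 from 0.25%. The AT2 and AT1 medians kept their direction under every alternative run, but their size changed. The AT1 median of 0.37 was 0.08 with no filter on level and 0.58 among genes of at least 50 CPM. The AT2 median of -0.61 was -0.39 after thinning and -0.95 with members from 0.25%. Of 463 values of 29 named genes other than Gsta1 and Fxyd2, and 1600 values of 100 genes of lists, 147 and 292 moved beyond their counting interval, and no gene called higher or lower reversed. Hopx, which had no call, went from 0.993 to as high as 1.34. After thinning, Krt8-low cells hold no Krt8 UMI, and no Krt8 ratio was given. The 11 highest genes other than Krt8 kept their call under all 16 alternatives, and so did the 12 lowest except Atp6v1c2, whose ratio went from 0.387 to 0.768 after thinning, and the cause was not tested. No paired analysis was possible because each group has 1 library. For the same reason no library could be left out. Counting limits the members to levels above 1.495 CPM, the level of 3 UMIs.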

Other observations

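Several cytoskeletal and growth factor genes outside the rule for named genes had high ratios, and they were picked after their values were seen. Tpm2, a tropomyosin, was 133 CPM in members and 3.58 in Krt8-low cells. Tubb6, a β-tubulin, was 21.4 CPM in members, from 43 UMIs, and 0.448 in Krt8-low cells, from 3 UMIs. Both had over 10% of their UMIs in members in 1 cell. Tubb2b, another β-tubulin, was 45.4 against 3.73 CPM, and Pdgfb, a platelet-derived growth factor chain, was 29.4 against 2.69.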
